A study of Homo sapiens with 4 samples.

Results

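The regions described here are accessible loci that had a peak in both replicate 2 libraries, 1 from MCF10A cells and 1 from G12V cells, and no peak in either replicate 1 library. They were chosen by the presence of peaks alone, after the peaks of all 4 lists on the 22 autosomes and X had been merged wherever they overlapped by at least 1 bp. Of 60886 merged regions, 9902 (16.3%) met the rule. A peak in 2 large lists and in neither small list is what placed a region in the group, so its presence in these libraries is not a finding.

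MCF10A is a nontransformed human mammary epithelial line, labelled Parental. G12V is the same line, labelled H-RAS Gv12, after lentiviral delivery of the HRAS G12V oncogene and a GFP vector, and selection in hygromycin. The methods describe no vector control for the MCF10A cells. All cells were grown with epidermal growth factor, insulin, hydrocortisone and cholera toxin, and no selected clone is named for either group. ATAC-seq was done on 2 biological replicates of each cell type. In this assay a transposase cuts into open DNA, and a cluster of cuts is called as a peak. The study asked which regulatory regions open or close on transformation. The regions described here are a set called in both cell types.

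Open chromatin is found chiefly at promoters and enhancers. Promoters of broadly used genes often lie in CpG-rich DNA and stay open in many cell types, whereas enhancers lie far from gene starts, are mostly CpG-poor and carry binding motifs of the factors active in that cell. In epithelial cells these factors include AP-1, a dimer of FOS and JUN proteins that acts downstream of growth factor and RAS signalling, and TEAD, the DNA-binding partner of YAP. CTCF marks insulators and loop anchors, and p53 is the stress-activated tumour suppressor.

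To show what these regions look like, the centre of a few of them is printed here. The windows are 150 bp of the + strand of GRCh37 (hg19), centred on the better ranked of the region's peaks, and capitals mark the motif match. They are among the best ranked members outside promoters with a match to 1 of 5 motifs, and 6 windows are shown.
The first AP-1 window, chr13:22211508-22211657, lies between genes, with the MICU2 start 33263 bp from the region's midpoint, and the second, chr5:59492364-59492513, lies in an intron of PDE4D, a cAMP phosphodiesterase.
AP-1, near MICU2: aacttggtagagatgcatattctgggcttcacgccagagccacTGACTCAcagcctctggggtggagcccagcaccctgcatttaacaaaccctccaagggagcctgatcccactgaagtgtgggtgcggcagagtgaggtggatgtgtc
AP-1, PDE4D intron: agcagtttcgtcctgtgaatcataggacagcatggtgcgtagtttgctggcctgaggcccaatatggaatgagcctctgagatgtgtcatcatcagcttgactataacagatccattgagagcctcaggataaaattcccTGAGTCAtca
The TEAD window, chr4:124041878-124042027, lies in an intron of SPATA5.
TEAD, SPATA5 intron: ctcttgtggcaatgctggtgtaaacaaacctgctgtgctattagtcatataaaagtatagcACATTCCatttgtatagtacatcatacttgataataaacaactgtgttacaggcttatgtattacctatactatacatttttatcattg
The p53 window lies between genes at chr3:194751877-194752026, and its match has 2 mismatches. The nearest protein-coding start, that of XXYLT1, is 239936 bp from the region's midpoint.
p53, near XXYLT1: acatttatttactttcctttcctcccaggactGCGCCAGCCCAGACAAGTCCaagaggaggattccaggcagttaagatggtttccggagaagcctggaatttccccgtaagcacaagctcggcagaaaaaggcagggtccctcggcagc
The ETS window, chr18:33889475-33889624, lies in an intron of FHOD3, and the grainyhead window, chr7:16707889-16708038, in an intron of BZW2.
ETS, FHOD3 intron: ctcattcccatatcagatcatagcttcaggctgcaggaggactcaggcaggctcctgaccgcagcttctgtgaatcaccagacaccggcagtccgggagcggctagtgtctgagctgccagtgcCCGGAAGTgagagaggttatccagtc
Grainyhead, BZW2 intron: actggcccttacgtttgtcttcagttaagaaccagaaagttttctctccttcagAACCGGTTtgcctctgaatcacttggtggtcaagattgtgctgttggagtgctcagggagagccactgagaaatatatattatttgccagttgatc
The AP-1 letters searched were TGACTCA, the TEAD letters ACATTCC, the ETS letters CCGGAAGT and the grainyhead letters AACCGGTT, on both strands. A p53 match can contain an AP-1 match, in which case the same bases were counted for both motifs. A match is a description of the letters and not a bound site.

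The 4 lists differed in size. The kept peaks numbered 12888 in MCF10A replicate 1, 34463 in MCF10A replicate 2, 14042 in G12V replicate 1 and 46673 in G12V replicate 2, and read depth is unknown from these lists. The members took 29.5% of the kept peaks of MCF10A replicate 2 and 21.6% of those of G12V replicate 2. The mirror pattern, both replicate 1 libraries and neither replicate 2 library, held 38 regions. When each list was cut to its 12888 strongest peaks, 1291 regions met the rule and 427 the mirror rule. That cut kept the whole MCF10A replicate 1 list but only the strongest peaks of each replicate 2 list. It therefore does not make depth or peak strength equal. What set replicate 2 apart from replicate 1 was not tested.

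For the labelled epithelial identity, promoters with a region of any class were counted. Of 22 desmosome and hemidesmosome genes 16 (72.7%) had one, against 49.7% of all 20090 protein-coding genes. This share alone does not mark epithelial cells, since it was 86.2% for autophagy and lysosome, 82.9% for DNA repair and 76.5% for cell cycle genes. Markers of other cell types had fewer, with 3 of 22 blood cell genes, 2 of 20 muscle genes, 3 of 20 liver genes, 2 of 15 endothelial genes and 5 of 21 neuronal genes. Of the 30 mammary epithelial identity genes, 11 (36.7%) had a region at the promoter, below the 49.7% of all protein-coding genes. KRT8, KRT17 and GRHL1 were among them. The annotated gene starts of TP63, KRT5, KRT14, KRT18, CDH1 and EPCAM, among others, had none in any library. Alternative starts were not counted here.

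The members ranked in the middle of both lists. The peak score, a MACS value that rises as the p-value of the peak falls, grows with depth, so each peak was placed by its percentile within its own list. In MCF10A replicate 2 the members had a median percentile of 45.9 (interquartile range 25.7 to 65.8, highest 97.5). In G12V replicate 2 the median was 55.8 (35.1 to 73.0, highest 99.1). Regions called in all 4 libraries had medians of 88.7 and 92.2, and regions called in a single replicate 2 library had medians of 28.3 (MCF10A) and 30.3 (G12V). The label of weaker sites thus held against regions of all 4 libraries but not against those of 1 replicate 2 library, which ranked lower. These ranks follow in part from the rule and are given with no test.

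The share of peaks that were members was highest inside each list and not at its ends. In MCF10A replicate 2 it was 26.7% in the lowest score decile, 37.7% in decile 5 and 4.93% in the highest. In G12V replicate 2 it was 12.7% in the lowest decile, 31.7% in decile 8 and 7.16% in the highest. The plot of classes by decile shows the handover from peaks of 1 library at the bottom to regions of all 4 libraries at the top.

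**Figure D1:**
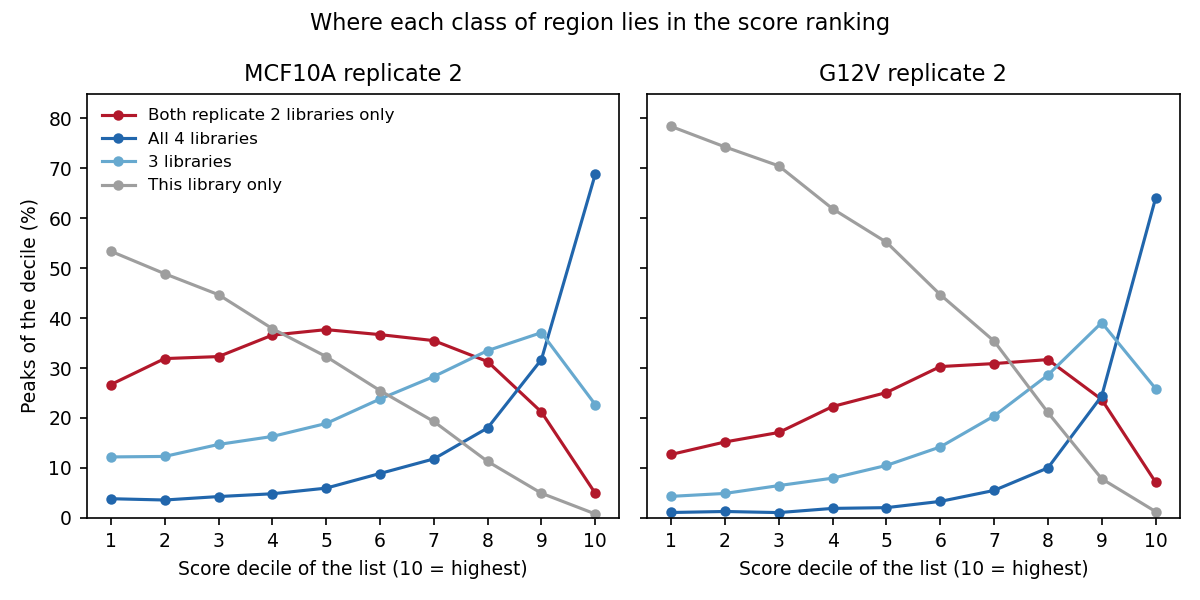
Share of peaks in each score decile of the 2 replicate 2 lists (x axis, 10 is highest) that belonged to each class of region (y axis, percent of the decile's peaks). The red line, regions of both replicate 2 libraries only, peaks at 37.7% in decile 5 of MCF10A and 31.7% in decile 8 of G12V, between the single-library peaks and the regions of all 4 libraries.

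Few members were strong in both lists. Of the 9902, 3106 (31.4%) were at or above the 50th percentile in both, 378 (3.82%) at or above the 80th and 42 (0.424%) at or above the 90th. For regions of all 4 libraries the same shares were 88.9%, 62.5% and 39.7%. Ranks in the 2 lists were only loosely related, with a Spearman rho of 0.319 across the 9902 members and 0.709 across the 5090 regions of all 4 libraries. This is a description across regions, which are not replicates and share 2 libraries. The classes were set by peak calls made from these same scores, which limits the comparison of rho between them.

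The peaks of a member lay close together in the 2 lists. In 9487 members (95.8%) each list had exactly 1 peak, and in 97.0% of these the peaks overlapped by at least 50% of the shorter one. Their midpoints were a median of 77.0 bp apart, and 216 bp at the 90th percentile. Members had a median width of 681 bp, between 1158 bp for regions of all 4 libraries and 454 and 439 bp for regions of G12V or MCF10A replicate 2 alone. A region spans all its merged peaks, so classes with more libraries tend to be wider. In members with 1 peak per list, the peaks had median widths of 494 bp (MCF10A replicate 2) and 571 bp (G12V replicate 2).

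Members tended to rank higher in the G12V list, as did regions of all 4 libraries. The percentile was higher in G12V replicate 2 for 6049 members (61.1%), and the median difference, G12V minus MCF10A, was 7.44 percentile points. In regions of all 4 libraries it was higher in G12V replicate 2 for 3383 of 5090 (66.5%), with a median difference of 2.00 points. The G12V list was the longer one and had more single-library peaks at its lower end, so a percentile is not the same strength in both lists, and with 1 library on each side the difference has no replicate check. At promoters the median percentiles were 54.0 in MCF10A and 60.6 in G12V, and outside promoters 44.1 and 54.5.

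**Figure D2:**
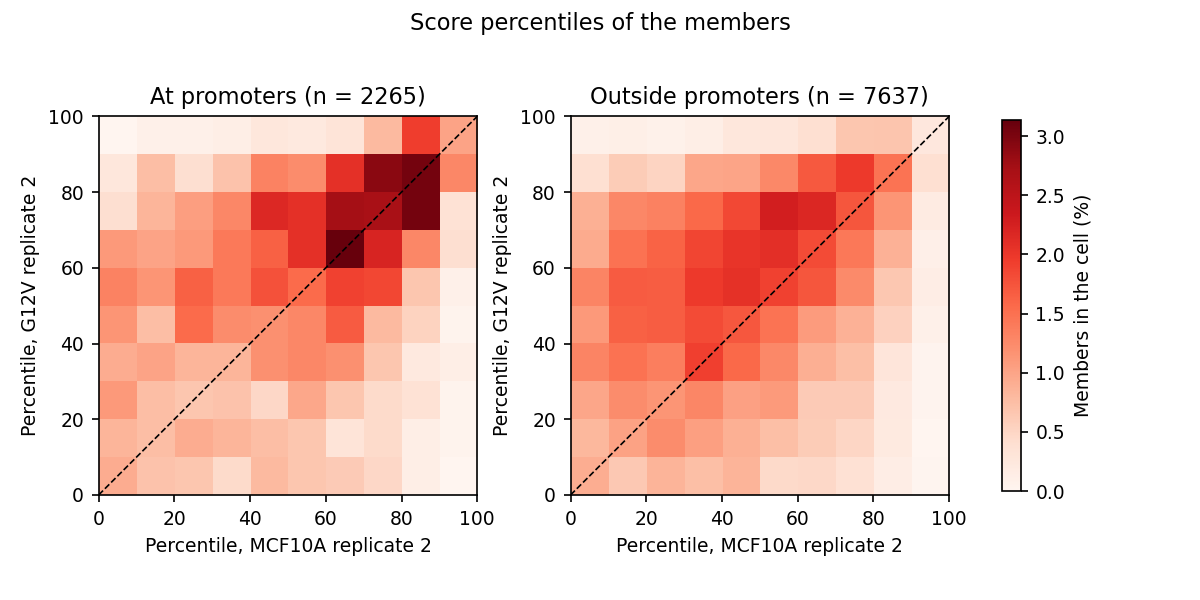
Percentile of each member in the MCF10A replicate 2 list (x axis) and the G12V replicate 2 list (y axis), as the percent of members in each cell of 10 by 10 percentile points, at promoters (n = 2265) and outside them (n = 7637). At promoters the fullest cells lie near the diagonal above the 60th percentile, though most promoter members lie elsewhere (medians 54.0 in MCF10A and 60.6 in G12V). The others spread over the middle of both lists, more of them above the dashed line of equal rank.

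Some members sat close to the rule's edge. In 1276 (12.9%) the score was below 45 in either list, where the lowest score kept by the authors was 40. A replicate 1 peak lay within 200 bp of 121 members (1.22%). On the other side of the edge, 439 of the 12202 regions called in both replicate 2 libraries and in at least 1 replicate 1 library (3.60%) were kept out of the group only by replicate 1 peaks that all scored below 45.

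Members were found at promoters less often than regions of all 4 libraries and more often than regions of 1 library. A region counted as a promoter when it touched the window between 1000 bp before and 500 bp after the start (TSS) of a protein-coding or long non-coding gene. The share was 22.9% of members (95% Wilson interval 22.1 to 23.7%, 2265 regions), where 18.6% of all merged regions were at promoters. Without MCF10A replicate 2, a peak in G12V replicate 2 sufficed, so regions of G12V replicate 2 alone joined the group. The share was then 13.5%, below the 18.6% of all merged regions of the 4 lists. That version does not describe the members alone. In the other classes the promoter share was 53% in regions of all 4 libraries and 32.9% in regions of 3 libraries. It was 12.7% in regions of MCF10A replicate 2 alone and 8.57% in regions of G12V replicate 2 alone. The difference from all 4 libraries was -30.2 percentage points (95% Newcombe interval -31.8 to -28.6) and that from G12V replicate 2 alone 14.3 points (13.4 to 15.2). Crossed regions, which pair replicate 1 of one cell type with replicate 2 of the other, had a promoter share of 21.3%, and their difference from the members had an interval that held 0 (-1.36 to 4.25). All such intervals cover counting error over regions and not the spread between libraries.

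Most members, as most merged regions, lay outside promoters. A share of 62.9% lay outside promoters but within 100 kb of a TSS and 14.2% lay farther away, against 65.7% and 15.7% of all merged regions, and the median distance from the midpoint of a member to a TSS was 19612 bp, against 666 bp in regions of all 4 libraries. By annotation at the centre, 38.8% of members were intronic and 48.1% intergenic (39.9% and 49.0% of all merged regions), 10.3% were in a UTR exon and 2.81% in a coding exon. Of the members, 489 (4.94%) lay within 10 kb of a region of all 4 libraries and 114 (1.15%) within 1 kb. The share within 10 kb was 5.35% over all regions outside that class, 4.45% in regions of G12V replicate 2 alone, 6.65% in regions of 3 libraries, 6.68% in lost, 7.79% in gained and 8.71% in crossed regions. The difference from G12V replicate 2 alone, 0.485 points, had an interval from -0.0157 to 1.00. With the rule and the all-library class taken from 3 libraries, the share was 9.97% without MCF10A replicate 1 and 9.05% without G12V replicate 1.

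**Figure D3:**
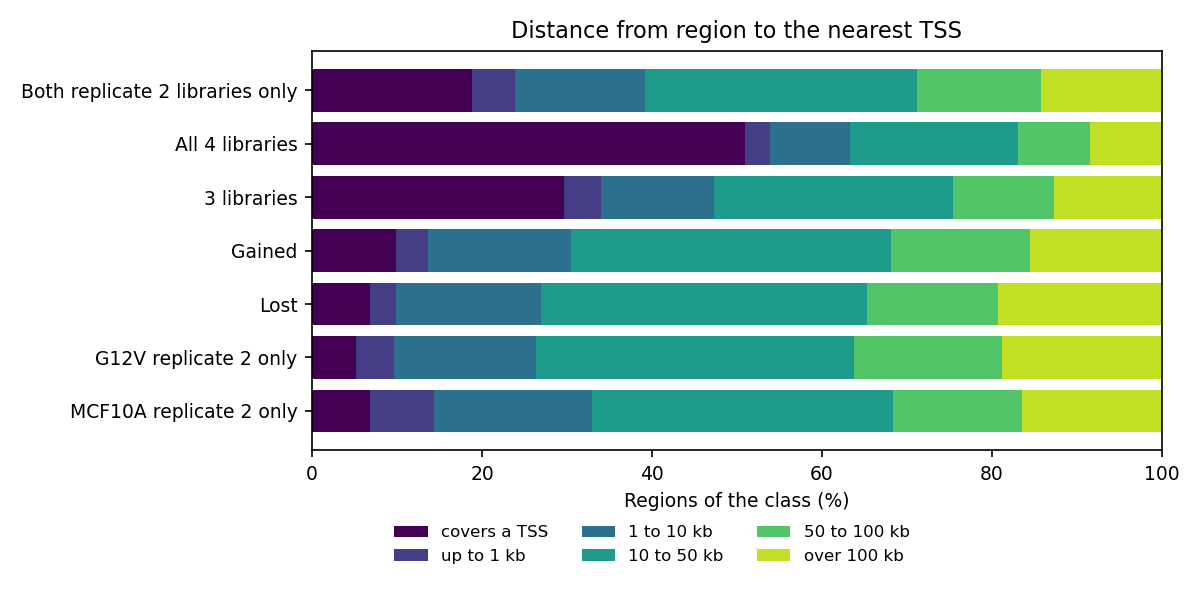
Distance from the edge of a region to the nearest TSS (colours) as a percent of the regions of each class (x axis), with gained regions called in both G12V libraries only and lost regions in both MCF10A libraries only. A TSS was covered by 18.8% of the members, by 50.9% of regions of all 4 libraries and by 5.11% of regions of G12V replicate 2 alone.

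The base composition split by position. A CpG-rich window (300 bp with at least 55% GC and a CpG observed to expected ratio of at least 0.65) was present in 20.8% of members (20.1 to 21.7%), against 15.8% of all merged regions and 48.3% of regions of all 4 libraries. Without MCF10A replicate 2, regions of G12V replicate 2 alone joined the group. The share was then 11%, below the 15.8% of all merged regions of the 4 lists. Among the 2265 promoter members the share was 71.8%, against 80.6% at promoters of all 4 libraries and 47.3% at those of G12V replicate 2 alone. Outside promoters it was 5.74% of members, so most members were of the CpG-poor type, with a median GC content of 48.3% over the whole group. Of the promoter members, 82.6% were at a protein-coding gene, 17.4% at long non-coding genes only and 30.5% at more than 1 TSS.

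Better ranked members were more often promoters. Where the lower of the 2 percentiles was at most 20, 19.5% of members were at promoters and 17% were CpG-rich. Above the 80th percentile these shares were 43.7% (38.7 to 48.7%) and 40.2%. Even there they stayed below the 53% and 48.3% of regions of all 4 libraries.

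The 5 promoter members with the highest ranks were mostly CpG-rich. The member at CEP97, a centrosomal protein that restrains cilium formation (chr3:101443237-101444357), had percentiles of 95.8 in MCF10A and 97.7 in G12V. The one at EXPH5, a RAB27B effector of secretory vesicles (chr11:108463776-108464931), had 95.5 and 94.7. The member at ZNHIT6, a snoRNP assembly factor (chr1:86173540-86174481), had 94.4 and 93.9. The one at RAB21, an endosomal GTPase (chr12:72148107-72149802), had 93.4 and 94.3, and that at RFESD (chr5:94982291-94983131) had 92.9 and 93.6. CEP97, ZNHIT6, RAB21 and RFESD had a CpG-rich window, and 0 of the 5 had an AP-1 match.

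Outside promoters, the highest ranked member was intergenic, at chr1:197987468-197988666, with the nearest protein-coding start, LHX9, 107035 bp away. Its percentiles were 97.5 in MCF10A and 99.1 in G12V, and it had no match to any of the 17 motifs in its window and a CpG ratio of 0.0625. The next was in NR3C1, the glucocorticoid receptor gene (chr5:142782571-142785205), with 94.3 and 94.7. That window was CpG-rich and 30952 bp from the TSS annotated for the gene. The member in a UTR exon of TMEM17, a ciliary membrane protein (chr2:62732783-62733933), had 94.3 and 97.5 and was CpG-rich too. The member at chr4:19777486-19778377 had 93.7 and 95.7, and the AP-1 member near MICU2 printed above (chr13:22211217-22212089) had 96.1 and 92.6.

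At the other end, the member in an intron of HMGN2 (chr1:26799436-26799915) had percentiles of 0.00870 in MCF10A and 21.8 in G12V and carried a CTCF match. The member near CD9 (chr12:6289467-6289922) had 0.00290 and 40.2. At promoters, RAB13 had 67.9 and 0.111 and SYNJ2 had 0.104 and 57.1. These 4 were at the limit of 1 list and not of both, while 21 members at promoters and 70 outside them were in the lowest 10 percentile points of both lists.

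A few members differed widely in rank between the lists. The member at chr7:117697361-117697937, which has an AP-1 match, had a percentile of 90.4 in MCF10A and 2.52 in G12V, and that at chr7:86729723-86730362 had 83.8 and 0.415. In the opposite direction, the member in an intron of SLC39A11 (chr17:70712097-70713053) had 2.21 in MCF10A and 92.8 in G12V, and that near RRP15 (chr1:218382472-218383794) had 2.77 and 93.8. These were picked as the extremes, and each rests on 1 library of each cell type.

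Of the 17 motifs scanned, AP-1 was found in the most members. A match in the 150 bp window was present in 1942 members (19.6%, 18.8 to 20.4%), against 15.9% of all merged regions, and the reversed letters, used as a control of equal composition, matched in 3.62%. The share was 10.7% in regions of all 4 libraries, 16.4% in regions of G12V replicate 2 alone and 15.7% in those of MCF10A replicate 2 alone. Part of the gap to regions of all 4 libraries goes with position, since AP-1 matches were rare at promoters (3.36% of promoter members).

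Outside promoters, 24.4% of members (23.5 to 25.4%, 1866 of 7637) had an AP-1 match. The share was 20.1% in regions of all 4 libraries, 23% in regions of 3 libraries, 17.4% in regions of G12V replicate 2 alone, 17.2% in those of MCF10A replicate 2 alone, 17.4% in gained and 19.4% in lost regions. Members minus all 4 libraries was 4.31 points (Newcombe interval 2.40 to 6.15), and members minus G12V replicate 2 alone 7.08 points (5.99 to 8.19). Members minus regions of 3 libraries was 1.46 points, with an interval that held 0 (-0.0659 to 2.97). The difference from all 4 libraries depended on the window: over whole regions, which are wider where all 4 libraries had a peak, it was -2.59 points (-4.85 to -0.311). It was -1.05 points when either replicate 2 library was left out, and regions of the other replicate 2 library alone then joined the group. Both intervals held 0 (-2.72 to 0.536 without MCF10A replicate 2, -2.84 to 0.651 without G12V replicate 2).

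The matches were concentrated at the centre. Outside promoters the members had 1.88 AP-1 matches per kb within 25 bp of the midpoint and 0.194 per kb at 350 to 500 bp, while the regions of all 4 libraries went from 1.46 to 0.297. Counted over the 500 bp on each side, there were 0.762 matches per member and 0.802 per region of all 4 libraries, of which 36.5% and 29.4% lay within 75 bp of the midpoint. The difference in matches per region was not tested. Most members with a match had 1 copy (1698 of 1866), and 161 had 2.

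**Figure D4:**
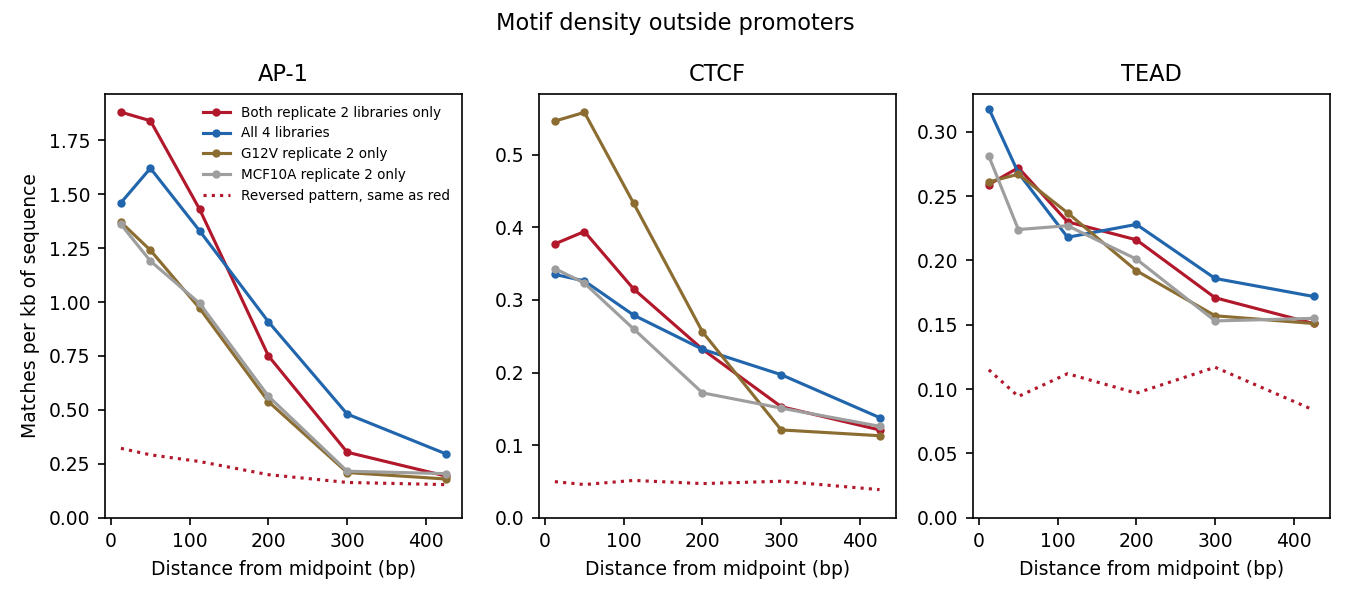
Matches per kb of sequence (y axis) against distance from the midpoint of the window (x axis, bp), outside promoters, for AP-1, CTCF and TEAD, with the reversed letters in the members as a dotted line. AP-1 falls from 1.88 to 0.194 per kb in the members, and CTCF falls from 0.377 to 0.121.

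The AP-1 share outside promoters was 21.6% (20.0 to 23.4%) in members with a lower percentile of at most 20 and 27.3% (24.8 to 30.1%) between 60 and 80. Above 80 it was 27.7% (22.1 to 34.1%). Outside promoters, members with an AP-1 match had median percentiles of 46.5 in MCF10A and 56.4 in G12V, and those without had 43.2 and 53.9. The median difference, G12V minus MCF10A, was 7.90 points with a match and 8.46 without.

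CTCF matches were present in 639 members (6.45%, 5.99 to 6.95%), against 6.56% of all merged regions, with 1.30% for the reversed pattern. Outside promoters the share was 5.29% of members. It was 8.59% in gained regions, 7.40% in G12V replicate 2 alone, 4.29% in MCF10A replicate 2 alone, 4.14% in regions of all 4 libraries and 2.70% in lost regions. Members minus G12V replicate 2 alone was -2.11 points (-2.72 to -1.48). In contrast to AP-1, the CTCF share outside promoters was lower in better ranked members, with 6.89% (5.91 to 8.02%) at or below the 20th percentile and 2.86% (2.02 to 4.03%) between the 60th and the 80th. The 2 motifs seldom shared a window: a CTCF match was present in 1.61% (1.13 to 2.29%) of members with an AP-1 match and in 6.48% (5.87 to 7.15%) of those without, outside promoters.

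TEAD matches were present in 310 members (3.13%), against 3.28% of all merged regions and 1.24% for the reversed letters. Outside promoters the share was 3.77% of members and between 3.52 and 4.29% in regions of all 4 libraries, 3 libraries, 1 replicate 2 library, gained and lost regions. The interval of each of these 6 differences held 0, and for all 4 libraries it ran from -1.24 to 0.562 points. RUNX letters (TGTGGTT) matched in 3.45% of members against 3.79% of all merged regions. TEAD matches were present in 3.54% of members with an AP-1 match and in 3.85% of those without. A grainyhead match, the motif of an epithelial pioneer factor family, was present in 5 members, and the reversed letters in 40. The grainyhead letters hold a CpG, which the reversed letters lack.

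p53 matches were rare among members. Of the 9902, 70 had a match (0.707%, 0.560 to 0.892%), against 1.26% of all merged regions and 0.182% for the reversed pattern. Without G12V replicate 2, a peak in MCF10A replicate 2 sufficed, so regions of MCF10A replicate 2 alone joined the group. The share was then 1.98%, above the 1.26% of all merged regions of the 4 lists. That version does not describe the members alone. By class, the p53 share was 7.14% in lost regions and 3.19% in regions of MCF10A replicate 2 alone. It was 0.532% in regions of G12V replicate 2 alone and 0.766% in regions of all 4 libraries. Members minus lost regions was -6.43 points (-7.96 to -5.14), and members minus all 4 libraries -0.0593 points (-0.375 to 0.217).

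The 70 members with a p53 match are described by their ranks, with no test against the rest. Their median percentile was 55.1 in MCF10A and 52.2 in G12V, and 29 of them (41.4%) ranked higher in G12V, against 61.2% of members without a match. The median difference, G12V minus MCF10A, was -6.27 points with an order-statistic interval of -12.1 to 3.06, against 7.50 in members without a match. The interval held 0. With equal lists, where 5 regions had a match, the median difference was 5.25 points (-0.752 to 12.4). With up to 2 mismatches, where 23 members had a match, it was -14.6 points (-30.4 to -5.61). The ranks come from 1 library of each cell type.

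**Figure D5:**
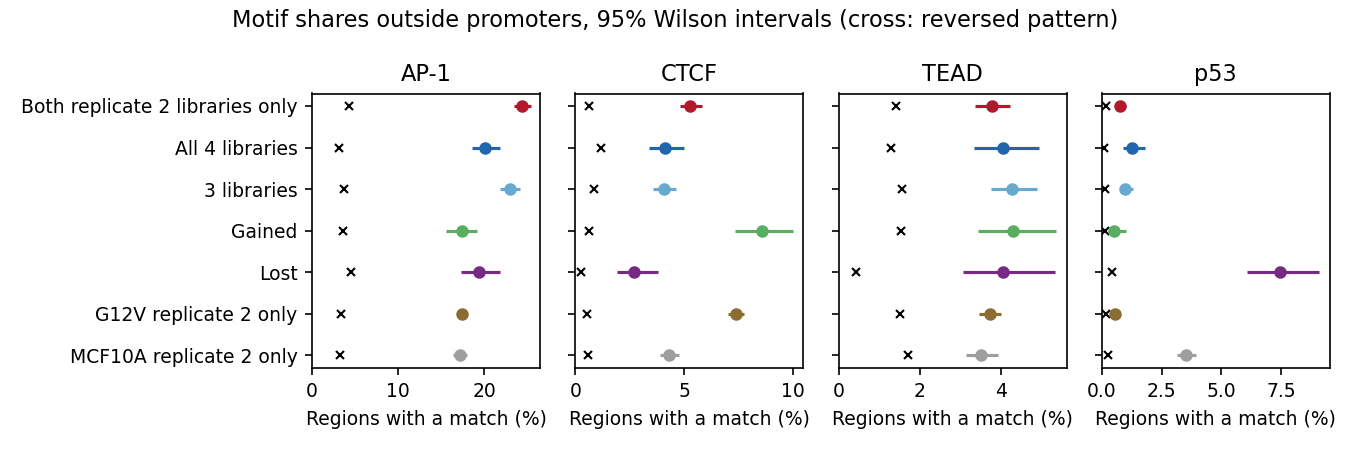
Share of regions outside promoters with a match in the 150 bp window (x axis, percent) for 4 motifs, by class of region, with 95% Wilson intervals and crosses for the reversed pattern. The members have an AP-1 share of 24.4%, close to the 23% of regions of 3 libraries, and a p53 share of 0.773%, against 7.44% in lost regions.

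Motifs common at promoters were scanned in the members too. ETS letters matched in 0.899% of all members, against 0.701% of all merged regions, and in 2.83% of promoter members against 2.81% of all promoter regions. The promoter share was 1.22 points above that of G12V replicate 2 alone (0.296 to 2.12), and the interval against all 4 libraries held 0 (-0.871 to 0.995). The GC box, bound by SP factors, matched in 2.15% of members (all merged regions 1.70%) and in 7.11% of promoter members. This was 1.73 points above promoters of G12V replicate 2 alone (0.217 to 3.20). It was 2.46 above those of MCF10A replicate 2 alone (lower bound of the interval 0.800). The reversed pattern was also more frequent in promoter members. Over 500 bp on each side they had 0.368 matches per region and 0.206 reversed. Promoters of G12V replicate 2 alone had 0.276 and 0.159, and those of MCF10A replicate 2 alone 0.307 and 0.172. Promoters of all 4 libraries had 0.409 and 0.210. Whether the motif differed beyond its reversed pattern was not tested. The NFY letters AGCCAAT matched in 2.70% of members (all merged regions 2.62%) and in 3.89% of promoter members, against 5.67% of promoters of all 4 libraries, a difference of -1.78 points (-2.96 to -0.587).

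Turning to genes, 2167 of the 20090 protein-coding genes (10.8%) had a member at the promoter, and 11893 (59.2%) had a member within 100 kb. For comparison, 2884 genes had a region of all 4 libraries at the promoter. The gene lists were chosen with earlier results of these data known, so their counts are given beside these shares and with no test.

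Genes of the YAP and TEAD pathway had members at 7 of 21 promoters (33.3%), and 17 of 21 (81.0%) had a region of any class. Genes with a member included CCN2, a matricellular target of YAP, with percentiles of 84.8 in MCF10A and 95.9 in G12V. NF2, the upstream tumour suppressor merlin, had 90.3 and 84.3. The kinase LATS2 had 27.7 and 72.5, its cofactors MOB1A and MOB1B had 52.7 and 54.2, and 74.7 and 79.3, and the muscle and YAP target ANKRD1 had 54.7 and 73.0. CCN1 had its nearest member 3221 bp from the TSS.

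In the EGF receptor family 3 of 15 promoters had a member. The receptor EGFR had percentiles of 49.9 in MCF10A and 90.4 in G12V, the ligand TGFA 89.3 and 81.7, and the ligand BTC 48.8 and 69.1. For the ligand HBEGF the nearest member was 1315 bp from the TSS, with 42.8 and 2.42. Among RAS-ERK feedback genes 2 of 19 promoters had one: SPRY4, an inhibitor of RAS signalling, with 82.5 and 92.4, and DUSP4, a nuclear ERK phosphatase, with 44.9 and 9.33. In this list 7 of 19 promoters had a region of all 4 libraries.

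Of the AP-1 subunit genes, 3 of 18 had a member at the promoter, each below the 40th percentile in MCF10A. FOS had percentiles of 38.9 and 13.6, ATF4 12.4 and 52.3, and BATF3 9.40 and 76.8, for MCF10A and G12V. At JUND the nearest member, 1584 bp from the TSS, was at the bottom of both lists with 2.53 and 0.195.

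Epithelial genes were among those with members. Of the desmosome and hemidesmosome genes 4 of 22 had one at the promoter, among them the desmosomal plaque gene DSP with 74.8 and 91.3, the cadherin DSG2 with 75.8 and 64.3, and the linker DST with 64.1 and 79.3. Of the mammary epithelial identity genes 5 of 30 had one. These were the transcription factors GRHL1 (69.4 and 66.7), TFAP2C (76.3 and 44.2), TFAP2A (37.1 and 72.6) and FOXA1 (63.3 and 32.6) and the splicing regulator ESRP2 (61.3 and 70.7). Among EMT regulators and cadherins 3 of 16 had one, namely CDH2 (66.9 and 66.6), TWIST1 (39.3 and 66.0) and FOXC2 (12.8 and 36.3).

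Genes of the cell division machinery had members at 9 of 34 cell cycle promoters, and 26 of 34 had a region of any class. RB1, which holds cells in G1, had 91.7 in MCF10A and 85.5 in G12V, the mitotic cyclin CCNB1 had 63.9 and 88.7, CCNB2 had 76.5 and 67.1, and the phosphatase CDC25A had 62.9 and 38.4. The Mediator and cohesin list had 8 of 38, and 32 of 38 had a region of any class. Among the 8 were CTCF itself (85.9 and 83.5), the Mediator kinase CDK8 (75.5 and 86.2) and the cohesin subunit STAG2 (49.5 and 75.3). DNA repair had 6 of 35, among them BRCA2 at 64.3 and 39.9. Among p53 targets 4 of 24 had one: MDM4 (68.7 and 78.5), TIGAR (95.4 and 64.8), DDB2 (52.0 and 44.3) and MDM2 (40.7 and 85.6). None of these had a p53 match in its 150 bp window, and the rest of each region is not covered by this statement.

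The other lists are given by their counts, to be read against the 10.8% of all protein-coding genes. A member was at 1 of 28 TGF-beta and BMP promoters (BMPR2, 58.4 and 84.3), 2 of 30 WNT promoters (LRP6 and LEF1), 2 of 20 Notch promoters (HES1 and MAML2), 2 of 29 autophagy and lysosome promoters, 2 of 25 matrix and metalloproteinase promoters (THBS1 and MMP10) and 2 of 21 cytokine and chemokine promoters (CXCL2 and CXCL3). Ribosomal protein genes had 4 of 43 and mitochondrial ribosomal protein genes 5 of 40. Of lists of other tissues, liver had 0 of 20, endothelium 0 of 15, muscle 1 of 20 (TNNC2), blood 1 of 22 (CD8A) and neurons 2 of 21. One of the neuronal pair, the synaptic vesicle protein gene SYT1, had a member with percentiles of 97.0 and 87.1, and the other, SYP, had 26.7 and 48.2.

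Members were spread over many genes. A total of 6087 protein-coding genes were nearest to at least 1 member, 4022 of them to exactly 1, and 213 to 5 or more. The highest number was 14, at TRPS1, a GATA-type transcriptional repressor, where 59 merged regions of all classes were nearest. KHDRBS3, an RNA-binding protein, had 13 of 59. EFNA5, PCDH9, TENM2, TENM3, TENM4 and TRIB1 followed with 11 each, of 46, 44, 68, 71, 50 and 39 regions. By chromosome, the share of merged regions that were members ran from 14% on chromosome 17 (12.4 to 15.8%) to 19.3% on chromosome 12 (17.9 to 20.8%).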

How the data were processed

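ATAC-seq peaks of 2 MCF10A and 2 G12V libraries were used. As the methods of the study describe, the authors aligned reads to hg19 with Bowtie, kept uniquely placed reads, corrected read starts for the transposase offset and ran MACS to call peaks. The deposited lists give, for each library, a position and a score per peak (the authors' MACS score), and the lowest score was 40, a p-value of 0.0001. Lists had no read counts, so depth is unknown, and a locus just under the threshold in a small list looks absent.

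Here peaks on the 22 autosomes and X were merged and classed by library. Scores were used only as percentiles within a list. Gene starts came from GENCODE v44 mapped to GRCh37 (20090 protein-coding and 18592 long non-coding genes), and the sequence was GRCh37. A total of 17 motifs were scanned on both strands in 150 bp windows, CTCF with up to 1 mismatch and p53 with up to 3 outside its core C and G, and the reversed, not complemented, pattern was the control. Shares have 95% Wilson and differences 95% Newcombe intervals. No p-values were computed, since regions are not replicates. Named regions were the 5 highest ranked at and outside promoters, the 2 lowest of each, the 2 with the largest rank difference each way and the 2 best ranked with a match to each of 6 motifs. Some named regions and genes are not reported here. Named genes came from 24 lists (607 genes), by member at the promoter or the distance of the nearest member, and by the number of nearest members. Members and lists were chosen with earlier results of these data known. Alternatives were other peak sets, overlaps, windows and annotations, and leaving out each library. Comparisons outside promoters of AP-1 shares and the ranks of p53 members were added after seeing the data. Python 3.11.15 with numpy 2.4.6, pandas 2.3.3, scipy 1.17.1, pysam 0.24.0 and matplotlib 3.10.9 was used, and the scans were tested on simulated data.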

Additional observations from a re-analysis of the deposited data

How the results depend on the processing

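Without MCF10A replicate 2 or G12V replicate 2 a peak in the other replicate 2 library sufficed, and over the 4 versions without 1 library the number of regions ran from 13096 (without MCF10A replicate 1) to 31423 (without MCF10A replicate 2). Over the same versions the promoter share ran from 13.5 to 26.3%, the AP-1 share from 17.4 to 19.1%, the CTCF share from 5.78 to 7.16%, the TEAD share from 3.05 to 3.41%, the p53 share from 0.579 to 1.98% (the highest without G12V replicate 2), the CpG-rich share from 11 to 23.8%, the share within 10 kb of regions of all libraries from 5.04 to 9.97%, the median of the lower percentile from 36.5 to 41.0, and the share of genes from 15.7 to 17.7%. AP-1 outside promoters, members minus all libraries, ran from -1.05 to 3.37 points, with -1.05 without either replicate 2 library, and the p53 median rank difference from -6.93 to -5.55 points without a replicate 1 library.

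Restricting each list to its better-scoring 50% cut replicate 1 peaks too, so regions that are not members met the rule. Of the 9902 members, 3106 were at or above the 50th percentile in both replicate 2 lists. The restricted lists gave 5396 regions, with a promoter share of 34.7%, AP-1 17.5%, CTCF 5.15%, CpG-rich 32.4%, 2.30% within 10 kb, a median lower percentile of 66.7 and 9.38% of genes. With equal lists these were 1291, 33.9%, 18.4%, 4.80%, 31.5%, 1.86%, 75.7 and 2.13%, with TEAD at 2.48% and p53 at 0.387% (5 regions), whose median rank difference became 5.25 points. Merging within 200 bp gave 4.48% within 10 kb. Limits of 5 kb and 50 kb gave 3.06% and 21.7%, and a 150 bp CpG window 19.8%. Promoter shares were 18.9% with protein-coding starts only and 30.8% with starts of all annotated transcripts, when 14.5% of genes had a member.

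Whole regions gave AP-1 45.8%, CTCF 21.5%, TEAD 12.5% and p53 3.80%, and 300 bp windows 33.6%, 11.8%, 5.88% and 1.70%. With 1 mismatch AP-1 was 51.5% and TEAD 35.2%, with 0 CTCF was 1.29%, and with up to 2 p53 was 0.232% and its rank difference -14.6 points. AP-1 outside promoters, members minus all 4 libraries, was -2.59 points over whole regions, 6.22 with 300 bp windows and 7.01 with 1 mismatch. Of 116 alternative values, 45 stayed within the interval of the reported value (for counts, within 1.5 times). Why the other values moved was not tested.

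No paired analysis was possible because no result comes from a test across samples and the replicate number is part of the rule. Unknown depth limits every absence in a replicate 1 list, and each rank rests on 1 library of each cell type.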
